A study of Homo sapiens with 4 samples.

Results

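The guidance genes described here are the semaphorins of classes 3 to 7, their neuropilin and plexin receptors, the ephrins and the Eph receptors. They were chosen by gene symbol alone among protein-coding genes, which gave 53 genes of the 61541 gene rows counted. Of these, 35 reached a mean of at least 1 CPM (counts scaled to a common library size) over the 4 libraries and are described below. The remaining 18 lay below that level.

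RNA was measured in H1299, a human lung carcinoma cell line. One group of 2 libraries came from control cells given phosphate-buffered saline (PBS), and the other group of 2 libraries came from cells treated with ginseng nanoparticles, which the study made by crushing and extruding the fresh plant. The labels give no dose, exposure time or plant part, and they do not say that replicates came from separate cultures. The p-values therefore weigh the difference between groups against a spread between libraries that may be only technical. Both nanoparticle titles contain the word control although the treatment label does not, and the treatment label was followed. The study asked how ginseng nanoparticles affect cancer cell migration, and these genes are among those known to steer moving cells.

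Semaphorins are secreted or membrane-bound ligands. Secreted class 3 semaphorins mostly bind a neuropilin that is joined to a plexin, and the plexin passes the signal to small GTPases, which reshape the actin skeleton and loosen adhesion. Ephrins are membrane-bound ligands of the Eph receptor tyrosine kinases, so that signalling needs contact between cells and runs in both directions. Both systems were first known from growing axons and also act in epithelial, endothelial and tumour cells.

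The libraries held between 22252686 and 24979081 counts on genes, and both nanoparticle libraries were deeper than both PBS libraries. KRT8 and KRT18, keratins of simple epithelia, were abundant, 3 of 6 epithelial markers and 4 of 4 mesenchymal markers reached 1 CPM, and the epithelial genes CDH1 and EPCAM lay below it. Of the leukocyte markers, PTPRC had no count in any library, whereas ITGAM had a mean of 6.63 CPM. ITGAM made up most of the leukocyte sum given next, and MBP, at a mean of 24.7 CPM, most of the neural sum. Summed markers of leukocytes (7.19 to 7.79 CPM in PBS, 6.2 to 7.92 with nanoparticles), endothelium, fibroblasts and neural cells overlapped between the groups. Summed epithelial markers did not, at 1670 to 1680 CPM in PBS and 1510 to 1540 CPM with nanoparticles. Nor did mesenchymal ones, at 2580 to 2670 and 2470 to 2510 CPM. Nearly all of the epithelial sum came from KRT18 and KRT8. KRT18 was at 1019 and 1032 CPM in PBS and at 927 and 915 CPM with nanoparticles. KRT8 was at 641 and 643 CPM in PBS and at 603 and 587 CPM with nanoparticles. Exons of KRT8 and KRT18 overlap each other on opposite strands, which leaves their counts uncertain. KRT7 was also lower in both nanoparticle libraries, whereas KRT19, EPCAM and CDH1 overlapped between the groups. VIM made up most of the mesenchymal sum, at 2319 and 2390 CPM in PBS and at 2231 and 2188 CPM with nanoparticles. CDH2 was also lower in both nanoparticle libraries, whereas FN1 and ZEB1 were higher in both. The part of depth and of these marker levels in the results below was not tested. Since CPM is a share of all counted RNA in a culture, fewer cells with a transcript and less of it per cell cannot be told apart.

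With nanoparticles SEMA3C, a secreted class 3 semaphorin, rose by 23.9%, and it was the only 1 of the 35 genes to pass (adjusted p at most 0.05 over all 15778 genes tested by edgeR's quasi-likelihood method). That is 2.86% of these genes, against 2.58% of all tested genes called in either direction, 1.75% called higher and 0.83% called lower. No guidance gene passed as lower. At an unadjusted p under 0.05 there were 6 guidance genes (17.1%, against 16.8% of all tested genes), of which SEMA3C, NRP2, SEMA3A and SEMA6A were on the higher side and EPHA10 and PLXNA1 on the lower side. DESeq2 and limma-voom also called SEMA3C and no other guidance gene. The median log2 fold change was 0.018 over the 35 genes and 0.00056 over all tested genes, with 19 of the 35 above 0 and 16 below. The sign of the members' median depended on single libraries: it was -0.028 without PBS replicate 1, 0.050 without PBS replicate 2, -0.036 without nanoparticle replicate 1 and 0.048 without nanoparticle replicate 2, with 14 to 23 of the 35 above 0. Both nanoparticle libraries lay above both PBS libraries for 6 of the 35 genes (17.1%, against 23.7% of all tested genes), and below both for 7 (20%, against 23.2%). As a family the guidance genes were therefore called about as often as any tested gene.

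**Figure D1:**
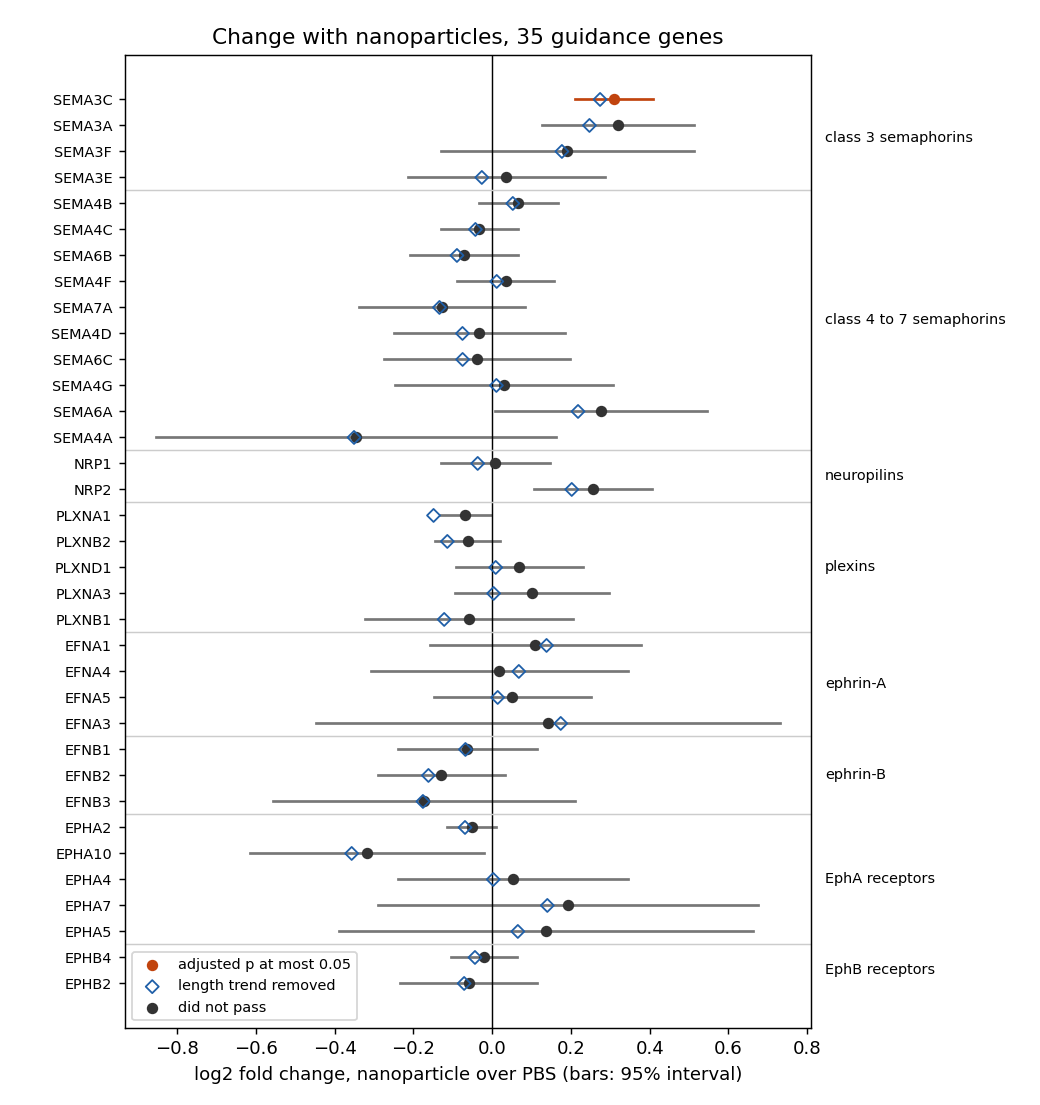
Log2 fold change of nanoparticle over PBS libraries for the 35 guidance genes of at least 1 CPM, grouped by role, with the 95% interval of the edgeR fit as a bar and, as an open diamond, the value after removal of each library's length trend. SEMA3C is the only gene that passed (log2 0.31). The intervals of SEMA3A (0.13 to 0.51), NRP2 (0.11 to 0.41) and SEMA6A (0.006 to 0.545) also lie above 0 without passing after adjustment. Those of EPHA10 (-0.615 to -0.021) and PLXNA1 (-0.13 to -0.004) lie below 0, also without passing.

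The precision of these comparisons differed by abundance. The 95% interval of the log2 fold change had a half-width between 0.062 and 0.59 with a median of 0.2. For 30 of the 35 genes the whole interval lay within a 1.5-fold change in either direction. The exceptions were SEMA4A, EPHA10, EPHA5, EPHA7 and EFNA3, with means between 1.11 and 5.29 CPM. The interval of EPHA10 (-0.615 to -0.021) was narrower than that of EFNA4 (-0.309 to 0.345), which lay within 1.5-fold. EPHA10 is an exception because its estimate lay further from 0.

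The upstream sequences of 3 genes are shown: of SEMA3C, which passed, of NRP2, a neuropilin with the next smallest p, and of PLXNA1, their abundant co-receptor. They come from RefSeq on GRCh38.p14, run 5′ to 3′ on the gene's strand, end at an annotated start, and leave out any base in an exon of GENCODE 29. The capitals mark GC boxes (GGGCGG on either strand), the motif of the SP family of transcription factors. The SEMA3C stretch lies at chr7:80922390-80922639 on the minus strand, the NRP2 stretch at chr2:205682251-205682499 on the plus strand and the PLXNA1 stretch at chr3:126982865-126983114 on the plus strand. GENCODE 29 starts NRP2 at 205681990, so that stretch lies inside the gene. It starts PLXNA1 at 126988594, so that stretch ends well before the gene.
SEMA3C: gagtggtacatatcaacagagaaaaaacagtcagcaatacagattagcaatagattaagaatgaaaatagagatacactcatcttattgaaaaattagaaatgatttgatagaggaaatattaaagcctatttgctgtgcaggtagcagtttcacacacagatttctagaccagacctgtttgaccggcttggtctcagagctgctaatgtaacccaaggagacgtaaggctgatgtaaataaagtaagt
NRP2: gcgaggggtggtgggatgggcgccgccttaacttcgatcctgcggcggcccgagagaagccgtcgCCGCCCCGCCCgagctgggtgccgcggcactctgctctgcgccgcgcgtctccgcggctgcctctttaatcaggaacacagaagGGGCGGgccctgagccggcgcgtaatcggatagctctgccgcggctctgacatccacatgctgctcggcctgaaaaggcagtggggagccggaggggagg
PLXNA1: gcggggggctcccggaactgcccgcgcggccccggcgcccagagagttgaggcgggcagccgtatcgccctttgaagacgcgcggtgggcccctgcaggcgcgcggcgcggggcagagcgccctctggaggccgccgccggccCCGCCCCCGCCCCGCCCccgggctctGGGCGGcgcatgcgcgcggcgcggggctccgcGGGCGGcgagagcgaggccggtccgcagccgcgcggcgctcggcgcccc

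The SEMA3C stretch shown was low in G and C (36.4%) and held no GC box. SEMA3C has another RefSeq start, whose upstream window (chr7:80919052-80919301, minus strand) is 77.6% G and C with 3 GC boxes and lies wholly in bases that GENCODE 29 annotates as exon, so it is not shown. The counts per gene do not say which start was used. The NRP2 stretch held 3 GC boxes and the PLXNA1 stretch held 5, some of them overlapping. The set of RefSeq promoters used here covered 47 of the 53 genes, as 74 windows of 250 bases. A GC box was present in 73% of these windows, against 42.6% of all 35116 RefSeq windows of that length. The set had no entry for SEMA3A, SEMA6A, SEMA6B, EPHA10, EFNB3 and NRP1, so these genes were not searched. Neither the core of the antioxidant response element (TGACNNNGC, the motif of NRF2) nor the AP-1 motif (TGANTCA), each searched on both strands, was present in the windows of SEMA3C, NRP2 or PLXNA1. These occurred in 8.11% and 1.35% of the guidance windows and in 10.9% and 6.57% of all windows. A match describes letters only and is not a measured binding site.

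Levels of different genes were compared per kilobase of the principal GENCODE 29 transcript (CPM per kilobase). EPHA2, a receptor tyrosine kinase of the EphA class that is common on carcinoma cells, was highest by far at 92.4, and made up 97.5% of the summed level of the EphA class. SEMA4B (32.6), EPHB4 (32.0) and PLXNA1 (31.5) came next and lay close together. PLXNB2 at 16.8, SEMA4C at 15.8 and SEMA3C at 13.2 followed, and SEMA6B was at 10.0 CPM per kilobase. All other members lay below 8 CPM per kilobase, so that each receptor class had 1 or a few dominant genes.

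**Figure D2:**
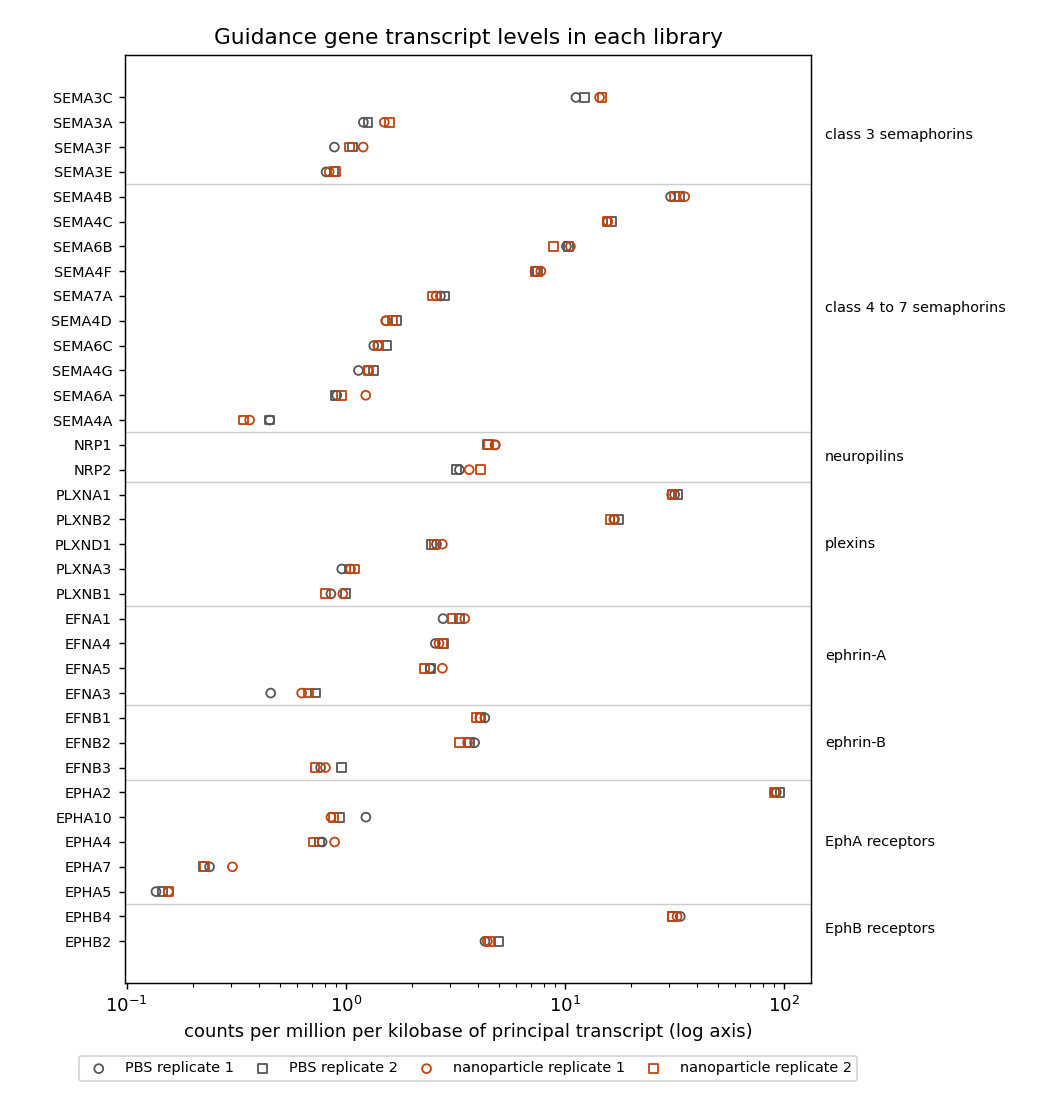
Level of each of the 35 guidance genes in each of the 4 libraries, in CPM per kilobase of principal transcript on a log axis, grouped by role. EPHA2 is highest (mean 92.4), and in most rows the PBS symbols (grey) and nanoparticle symbols (orange) lie on top of each other.

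Class 3 semaphorins are secreted ligands that turn away or attract cells and axons. SEMA3C was at 58.1 and 63.7 CPM in the PBS libraries and at 74.5 and 76.5 CPM in the nanoparticle libraries. Both nanoparticle libraries were thus higher than both PBS libraries, from 60.9 ± 3.99 to 75.5 ± 1.41 CPM (mean ± SD, n = 2 per group). The log2 fold change was 0.31 with a standard error of 0.047 (95% interval 0.21 to 0.41, edgeR adjusted p = 0.000847). SEMA3C lies on chromosome 7 from 80742538 to 80922359 (GRCh38, GENCODE 29), and no exon of another gene overlaps its exons there. It did not pass when either PBS library was left out (log2 0.24, adjusted p = 0.502, without replicate 1; 0.38, 0.445, without replicate 2), nor with no low-count filter (log2 0.32, adjusted p = 0.544), settings in which no gene of the whole table passed.

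SEMA3A, the founding repulsive semaphorin, was at 9.89 and 10.4 CPM in PBS and at 12.3 and 13.0 CPM with nanoparticles. Its groups did not overlap, its log2 fold change of 0.32 was of the size of that of SEMA3C, and with fewer counts it did not pass (SE 0.093, edgeR adjusted p = 0.0723). It passed with a filter at a mean of 50 counts (adjusted p = 0.0441) and with a replicate block (0.0277). It did not pass by DESeq2 (adjusted p = 0.775) or in edgeR's test without a low-count filter (0.544). SEMA3F, a ligand that prefers neuropilin 2, was at 3.37 and 4.07 CPM in PBS and at 4.56 and 3.94 CPM with nanoparticles, so that the groups overlapped (log2 0.19, 95% interval -0.13 to 0.51). SEMA3E, which binds plexin D1 without a neuropilin, had a mean of 6.22 CPM and a log2 fold change of 0.035 (95% interval -0.22 to 0.29).

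The class 3 genes fall into 2 chromosomal groups that the choice by symbol did not use. SEMA3C, SEMA3E, SEMA3A and SEMA3D lie in this order on chromosome 7 between 80742538 and 85186855, all on the minus strand, with transcripts of 34.9% to 39.4% G and C. SEMA3F, SEMA3B and SEMA3G lie on chromosome 3 between 50155045 and 52445085, with 58.4% to 64.8% G and C. Of the chromosome 7 genes SEMA3D was below 1 CPM, with 8 and 10 counts in PBS and 16 and 15 counts with nanoparticles (log2 0.62, 95% interval -0.19 to 1.43). On chromosome 3, SEMA3G had 2 and 5 counts in PBS and 9 and 13 with nanoparticles, too few to be tested, while SEMA3B had 18 and 17 against 14 and 17 (log2 -0.33, 95% interval -1.02 to 0.36). SEMA3E, which lies between SEMA3C and SEMA3A on the chromosome, had a fold change near 0, with values below 0 without PBS replicate 1 (-0.025), without nanoparticle replicate 2 (-0.014) and with the length trend removed (-0.026), and its difference from these neighbours was not tested.

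Neuropilins bind class 3 semaphorins and hand the signal to plexins. NRP2 was at 21.98 and 21.34 CPM in PBS and at 24.4 and 27.4 CPM with nanoparticles. The groups did not overlap, and nanoparticle replicate 2 was the higher of its pair (log2 0.26, SE 0.072, edgeR adjusted p = 0.0644). NRP2 passed with total-count scaling (adjusted p = 0.0454), with the filter at 50 counts (0.0321), with a replicate block (0.0112) and without nanoparticle replicate 1 (log2 0.34, 0.0433), whereas leaving out nanoparticle replicate 2 gave a log2 fold change of 0.17. NRP1, the more abundant neuropilin per kilobase, was at 28.2 and 26.1 CPM in PBS and at 28.3 and 26.4 CPM with nanoparticles. The NRP1 libraries of each group covered nearly the same range (log2 0.0079, 95% interval -0.13 to 0.15). Exons of both neuropilin genes overlap an antisense gene without a symbol, and since no source used here tells whether reads were counted by strand, such overlaps leave the counts uncertain. The same holds for antisense partners of SEMA3F, EPHA4, EPHA5 and EFNB2, a microRNA gene opposite EPHB2, SLC12A9 opposite EPHB4 and LAGE3 opposite PLXNA3.

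**Figure D3:**
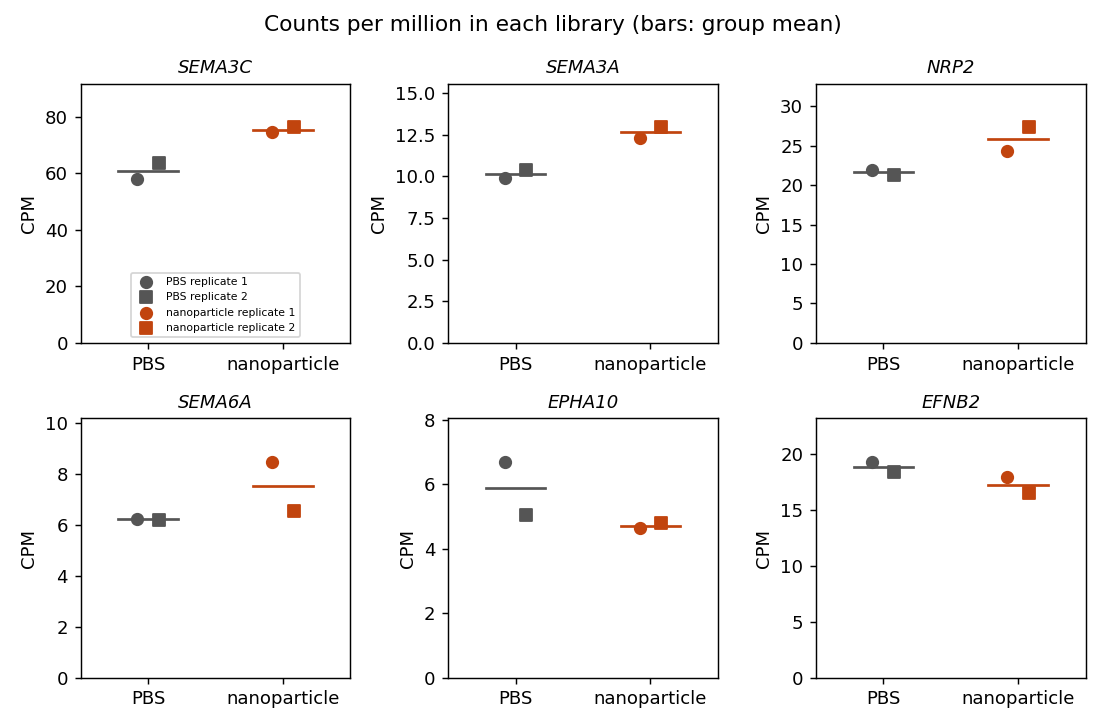
CPM of SEMA3C, SEMA3A, NRP2, SEMA6A, EPHA10 and EFNB2 in each library, with the group mean as a bar and the vertical axes starting at 0. These are the 6 guidance genes of at least 5 CPM with the largest fold changes among those whose groups do not overlap, and SEMA3C is the 1 that passed.

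Plexins are the signalling receptors of semaphorins. PLXNA1, the partner of neuropilins for class 3 ligands, was at 287 and 297 CPM in PBS and at 278 and 279 CPM with nanoparticles. Both nanoparticle libraries were slightly lower, by 4.64% from the means of the fit, and the gene did not pass (log2 -0.069, SE 0.031, edgeR adjusted p = 0.262). PLXNB2, a receptor of class 4 semaphorins, was at 107 and 113 CPM in PBS and at 108 and 103 CPM with nanoparticles (log2 -0.062, 95% interval -0.15 to 0.020). PLXND1, the receptor of SEMA3E, was at 18.4 and 17.4 CPM in PBS and at 19.6 and 18.0 CPM with nanoparticles (log2 0.069, 95% interval -0.093 to 0.23). The groups overlapped for PLXNB2 and PLXND1. PLXNA3 (log2 0.10) and PLXNB1 (-0.060), which is the receptor of SEMA4D, had means of 11.3 and 6.63 CPM and did not pass. PLXNA2 and PLXNC1, known as receptors of SEMA6A and SEMA7A, and PLXNB3 were below 1 CPM, and PLXNA4 had no count.

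Semaphorins of classes 4 to 7 are mostly membrane-bound. Of 10 members at 1 CPM or more none passed, 1 was under an unadjusted p of 0.05, and their median log2 fold change was -0.033. SEMA4B, the most abundant, was at 116 and 127 CPM in PBS and at 134 and 120 CPM with nanoparticles, with overlapping groups (log2 0.066, 95% interval -0.034 to 0.17). SEMA4C, a ligand of plexin B2, was at 55.3 and 58.0 CPM in PBS and at 55.6 and 55.1 CPM with nanoparticles (log2 -0.033, 95% interval -0.13 to 0.065). SEMA6B was at 40.5 and 41.2 CPM in PBS and at 42.2 and 35.5 CPM with nanoparticles (log2 -0.072). The nanoparticle libraries of SEMA6B spanned both sides of the PBS values.

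SEMA6A, a transmembrane ligand of plexins A2 and A4, was at 6.25 and 6.17 CPM in PBS and at 8.48 and 6.55 CPM with nanoparticles. The difference came mainly from nanoparticle replicate 1 (log2 0.28, edgeR adjusted p = 0.285; log2 0.077 without that library), and exons of SEMA6A overlap 2 antisense genes. SEMA4D, SEMA4F, SEMA4G and SEMA6C had log2 fold changes between -0.039 and 0.034. SEMA7A, a lipid-anchored ligand of plexin C1 and integrins, had a log2 fold change of -0.13 (95% interval -0.34 to 0.084) and SEMA4A one of -0.35 (-0.85 to 0.16). Exons of SEMA4G overlap MRPL43 on the opposite strand, so its counts are uncertain.

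Ephrins of class A are held by a lipid anchor and those of class B span the membrane. All 4 ephrin-A genes at 1 CPM or more had fold changes above 0, each with a value below 0 when 1 of the libraries was left out, all 3 ephrin-B genes had values below 0, and none passed. EFNA1, a ligand of EPHA2, was at 5.35 and 6.35 CPM in PBS and at 6.72 and 5.91 CPM with nanoparticles (log2 0.11). EFNA4 was at 3.24 and 3.54 CPM in PBS and at 3.36 and 3.497 CPM with nanoparticles (log2 0.018). EFNA5 was at 12.9 and 13.0 CPM in PBS and at 14.7 and 12.2 CPM with nanoparticles (log2 0.051). The groups overlapped for these 3 and for EFNA3, which at a mean of 1.11 CPM was the member just above the 1 CPM line (0.809 and 1.30 CPM in PBS, 1.12 and 1.21 CPM with nanoparticles). EFNA3 and EFNA4 share exons with a read-through gene, so their counts are uncertain.

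EFNB2, the ligand of EPHB4, was at 19.3 and 18.4 CPM in PBS and at 18.0 and 16.5 CPM with nanoparticles. Both nanoparticle libraries were lower, without passing (log2 -0.13, SE 0.077, edgeR adjusted p = 0.425). EFNB1 was at 14.3 and 13.6 CPM in PBS and at 13.6 and 13.1 CPM with nanoparticles (log2 -0.063, 95% interval -0.24 to 0.12). EFNB3 was at 2.47 and 3.09 CPM in PBS and at 2.60 and 2.33 CPM with nanoparticles (log2 -0.17, 95% interval -0.56 to 0.21). The groups of EFNB3 overlapped, and those of EFNB1 were separated by a gap smaller than the spread within PBS.

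Eph receptors carry the kinase domain of this system. EPHA2 was at 366 and 380 CPM in PBS and at 360 and 359 CPM with nanoparticles. Its nanoparticle libraries were slightly lower (log2 -0.052, SE 0.029, 95% interval -0.11 to 0.0093, edgeR adjusted p = 0.394), which is the narrowest interval of the 35 genes. EPHB4 was at 146 and 134 CPM in PBS and at 141 and 135 CPM with nanoparticles (log2 -0.021, 95% interval -0.10 to 0.063). EPHB2 was at 15.9 and 18.4 CPM in PBS and at 16.3 and 16.6 CPM with nanoparticles (log2 -0.059). The groups of both EphB genes overlapped.

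EPHA10, an Eph receptor without catalytic activity, was at 6.70 and 5.06 CPM in PBS and at 4.64 and 4.78 CPM with nanoparticles. The difference came mainly from PBS replicate 1 (log2 -0.32, edgeR adjusted p = 0.258; log2 -0.10 without that library). EPHA4 was at 4.94 and 4.83 CPM in PBS and at 5.64 and 4.50 CPM with nanoparticles, with overlapping groups (log2 0.053). EPHA5 and EPHA7, with means of 1.23 and 1.63 CPM, had log2 fold changes of 0.14 and 0.19 that did not pass. EPHA3, at a mean of 0.909 CPM, was the member just below the 1 CPM line, with 0.944 and 0.805 CPM in PBS and 0.760 and 1.13 CPM with nanoparticles.

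Among the 18 genes below 1 CPM, 7 had enough counts to be tested and none of them passed, with none at an unadjusted p under 0.05. The other 11 were removed by the low-count filter, and 4 of these, EPHA1, EPHB1, PLXNA4 and SEMA5B, had no count in any library. A count of 0 allows up to 3 counts in a library, or 0.12 to 0.135 CPM, which covers counting error only. Exons of EPHA1 overlap ZYX and those of EPHB1 overlap KY on the opposite strand, so the uncertainty of such overlaps also holds for these zeros.

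Transcript length went with fold change across the whole table. When genes above 5 CPM were ordered by length and cut into 10 bins, the bin of the shortest transcripts had a median log2 fold change of -0.062 and that of the longest one of 0.081. Guidance genes have long transcripts, with a median of 5174 bases for the 35 against 2856.5 for all tested genes. Across the 35 genes, which are not independent replicates and share the same 4 libraries, Spearman's rank correlation with fold change was 0.3 for length and -0.46 for GC content. After removal of each library's length trend, the correlation with length was 0.1. Length and GC content were themselves correlated at -0.29 over the 35 genes. Whether the correlation with GC content is particular to these genes was not tested.

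**Figure D4:**
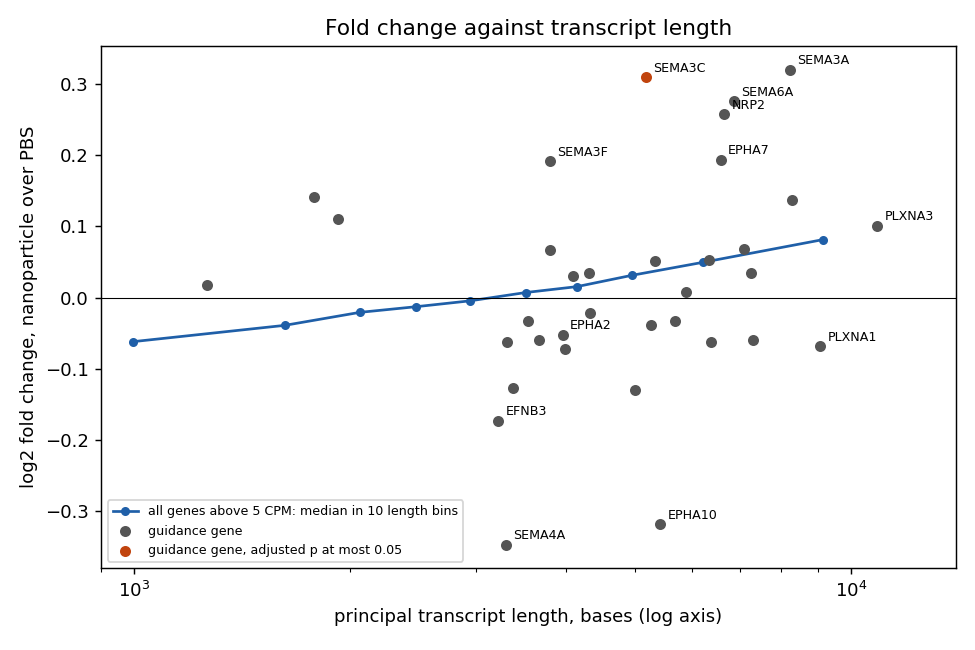
Log2 fold change against principal transcript length (log axis) for the 35 guidance genes, with the median over all genes above 5 CPM in 10 length bins as a line. The line goes from -0.062 to 0.081, SEMA3C (orange) lies above it, and PLXNA1, at 9066 bases, lies below it.

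With the length trend removed SEMA3C still passed (log2 0.27, edgeR adjusted p = 0.00322), and also with length and GC trends removed together (0.25, 0.00522). SEMA3A (log2 0.25, adjusted p = 0.219) and NRP2 (0.20, 0.186) had smaller fold changes after the removal. All 3 values moved down, and so did that of PLXNA1, 1 of the longest transcripts of the family, which went from -0.069 to -0.15 and passed as lower (adjusted p = 0.0147, and 0.0411 with length and GC removed together). The median of the 35 genes went from 0.018 to -0.026, with 17 above 0 and 18 below. A call for PLXNA1 therefore rests on this correction. The direction of SEMA3C, SEMA3A, NRP2 and PLXNA1 was the same in all 15 alternatives. Since the groups of each of these genes did not overlap, leaving out a library could hardly turn a sign. The other alternatives use the same counts, so the shared direction adds no separate evidence.

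**Figure D5:**
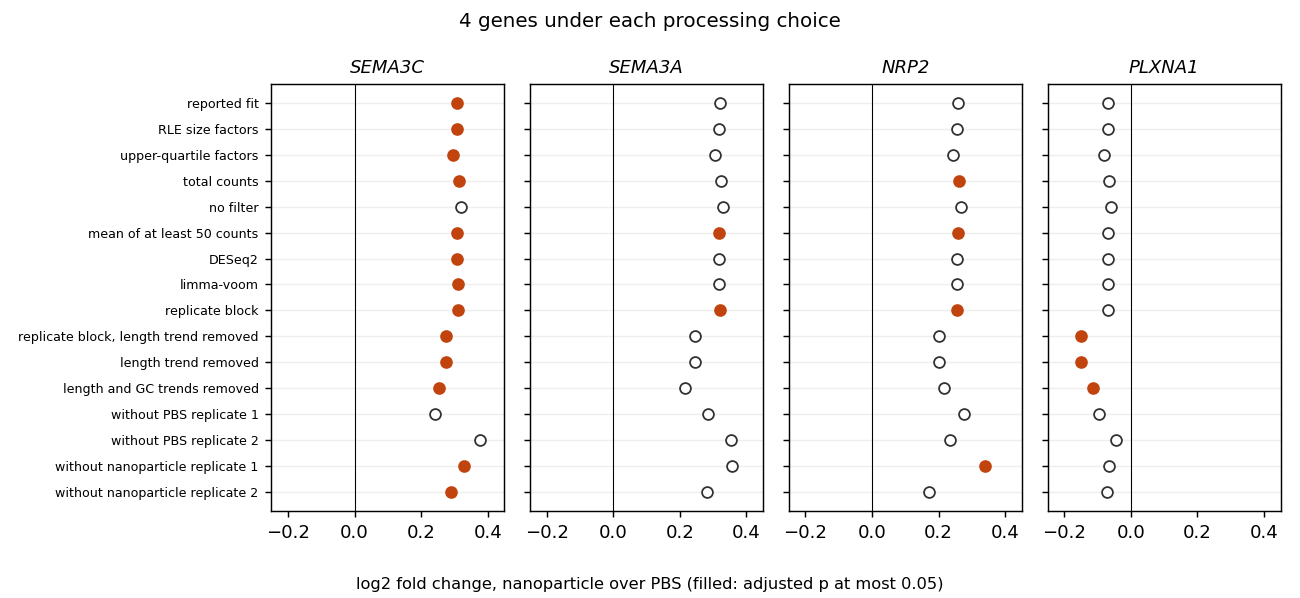
Log2 fold change of SEMA3C, SEMA3A, NRP2 and PLXNA1 in the reported fit and 15 alternatives, with filled points where the adjusted p was at most 0.05. SEMA3C passed in 12 of the 15 alternatives, NRP2 in 4, PLXNA1 in 3 and SEMA3A in 2. Each gene stays on 1 side of 0, and as its groups do not overlap, a turn of sign was hardly possible.

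The partners and effectors of these receptors were examined as 3 lists. Of 38 tested semaphorin and plexin partners 2 passed (5.26%, against 2.58% of all tested genes), with a list median of -0.0071. ARHGEF12, a guanine nucleotide exchange factor bound by plexin B receptors, rose (106 and 103 CPM in PBS, 122 and 123 CPM with nanoparticles; log2 0.23, edgeR adjusted p = 0.00142). RRAS, a small GTPase that plexins switch off, fell (64.0 and 65.4 CPM in PBS, 57.4 and 55.7 CPM with nanoparticles; log2 -0.19, adjusted p = 0.024). DPYSL2, the collapsin response mediator that acts downstream of SEMA3A, was lower in both nanoparticle libraries without passing (log2 -0.14, edgeR adjusted p = 0.0576), and passed with the length trend removed (log2 -0.16, adjusted p = 0.0282). Exons of DPYSL2 overlap PNMA2 on the opposite strand.

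Of 30 tested Eph and ephrin partners 1 passed (3.33%, against 2.58% of all tested genes). CBL, a ubiquitin ligase of receptor tyrosine kinases, rose from 56.3 and 59.6 CPM in PBS to 67.9 and 69.9 CPM with nanoparticles (log2 0.25, edgeR adjusted p = 0.00463). In this list 25 genes had values above 0 and 5 below, against 7922 above and 7856 below among all tested genes. The list median was 0.039, with a median transcript length of 4665 bases. Among all genes above 5 CPM, the length bins with medians of 4147 and 4944 bases had median log2 fold changes of 0.015 and 0.031. The part of length in the list median was not tested. ABL2 (log2 0.11) and ANKS1A (0.13) had the next smallest p. Exons of CBL overlap MCAM on the opposite strand. In edgeR's test ARHGEF12 passed with length and GC trends removed together (log2 0.14, adjusted p = 0.0427). It also passed with the length trend removed and a replicate block (0.14, 0.0313). With the length trend alone removed, ARHGEF12 (log2 0.14, adjusted p = 0.0565), CBL (0.15, 0.106) and RRAS (-0.14, 0.149) did not pass. Without PBS replicate 1 the adjusted p of all 3 was 0.502 and without PBS replicate 2 it was 0.47, and none passed without nanoparticle replicate 2. Transcripts of ARHGEF12 and CBL are long (9660 and 11231 bases) and that of RRAS is short (1044 bases).

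None of 18 tested genes among the other guidance ligands and receptors (netrins, SLITs, ROBOs and their kin) passed in edgeR's test. Of these, 15 had log2 fold changes above 0 and 3 below, against 7922 and 7856 of all tested genes. The list median was 0.060, with a median transcript length of 6345.5 bases. At an unadjusted p under 0.05 there were 2 genes (11.1%, against 16.8% of all tested genes). These 2 were ROBO4 (log2 -0.67, adjusted p = 0.207, at a mean of 1.09 CPM) and ROBO1, the receptor of SLIT ligands (log2 0.14, adjusted p = 0.211). SRGAP1, a GTPase-activating protein that binds ROBO receptors, came next (log2 0.086, adjusted p = 0.449). Exons of ROBO4 and of SRGAP1 overlap antisense genes, so their counts are uncertain.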

How the data were processed

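Polyadenylated RNA from 4 libraries of H1299 cells was counted per Ensembl gene, with 1 file per library; the groups follow the treatment label. The deposited values are raw whole-number counts. Per the submitters' processing notes, the tools were STAR 2.7.6a, HTSeq 2.0.2, cutadapt 3.5, bcl2fastq 2.20 and Picard, with the GRCh38 build; for the annotation release and the strand setting of HTSeq the sources used here give nothing. Rows for reads given to no gene (13.7% to 14.8% of reads) were left out. Symbols came from a gene name table for 61369 of 61541 rows and from GENCODE 29 for 159 more; lengths, GC content and positions came from GENCODE 29. All rows were filtered with filterByExpr, scaled by TMM and tested, nanoparticle against PBS, two-sided, with edgeR 4.0.16 (quasi-likelihood, R 4.3.3) and Benjamini-Hochberg adjustment over all tested genes at 0.05; nothing was adjusted over the members alone. CPM use TMM-scaled library sizes. Standard errors come from the coefficient and its F statistic.

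For the length alternatives each library's deviation from the gene mean of log2 CPM was regressed robustly (MASS 7.3.60.0.1) on a spline with 4 df of log2 transcript length, with or without GC, using genes above 5 CPM, and the trend became an offset. Further alternatives were DESeq2 1.42.0 (independent filtering off), limma-voom 3.58.1, a replicate block, leaving out each library, scaling by total counts, RLE or the upper quartile, and testing without a filter or at a minimum mean of 50 counts.

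The members, lists and alternatives were chosen with earlier results of these data known. Values in every library are given for members that passed, for up to 3 members per role with the highest level per kilobase, for the 6 largest changes of at least 5 CPM without overlap between groups, and for the members on either side of 1 CPM; up to 3 genes per partner list are named by smallest p. Replicates differed by more than counting noise (chi-square per degree of freedom 1.78 in PBS and 1.95 with nanoparticles), and each was counted as a library of its group. This spread cannot tell separate cultures from repeated libraries of a single culture. Figures were drawn with matplotlib 3.10.9.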

Additional observations from a re-analysis of the deposited data

How the results depend on the processing

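Of the reported 407 genes that passed in the whole table, 276 were higher and 131 lower. The count was 0 without a low-count filter (2297 genes at an unadjusted p under 0.05), 90 by DESeq2, 759 with a replicate block, 227 with the length trend removed, 262 with length and GC trends removed, and 0 to 200 when 1 library was left out (0 without either PBS library). With upper-quartile scaling the split was 223 higher and 190 lower.

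Of the 35 guidance genes, in place of 1, the number that passed was 2 with total counts, 0 without a filter, 3 with a mean of at least 50 counts, 3 with a replicate block, 2 with the length trend removed, with or without the block, 2 with length and GC trends removed, and 0 to 2 when 1 library was left out. Of the partner lists, in place of 3, it was 0 without a filter, 1 by DESeq2, 5 with a replicate block, 1 with the length trend removed (DPYSL2, which is not among those 3) and 0 to 2 when 1 library was left out. The cause was not tested. A minimum mean of 0.5 or 2 CPM would have kept 42 or 31 genes.

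The replicate numbers are not said to mark shared cultures, and the correlation between the differences of the PBS pair and the nanoparticle pair was 0.036 over 11100 genes, so the block was kept as an alternative.

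Leaving out 1 library turned the sign of log2 fold changes that had not passed: they ranged from -0.010 to 0.24 for EFNA1, -0.16 to 0.52 for EFNA3, -0.046 to 0.082 for EFNA4, -0.092 to 0.18 for EFNA5, -0.20 to 0.36 for EPHA3, -0.12 to 0.21 for EPHA4, -0.16 to 0.050 for EPHB2, -0.081 to 0.039 for EPHB4, -0.048 to 0.063 for NRP1, -0.016 to 0.15 for SEMA4B, -0.068 to 0.00035 for SEMA4C and -0.20 to 0.048 for SEMA6B. SEMA3E, SEMA4D, SEMA4F, SEMA4G, SEMA6C, EPHA7 and PLXNB1 also turned in at least 1 of these fits. NRP1 also turned with upper-quartile scaling (-0.0048) and with the length trend removed (-0.037, also with the block, and -0.032 with GC), as did SRGAP1 (-0.086, -0.086 and -0.083). Members with few counts, such as EFNA3 and EPHA3, had the widest ranges.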
